A study of Mus musculus with 6 samples.

Results

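The genes described here are 46 genes of DNA replication and nucleotide supply, given as a list of symbols and found by their Ensembl identifiers among the 23644 genes of an RNA sequencing table. All 46 were listed. The table holds 6 libraries of 4T1, a line of mouse mammary tumour cells kept in culture: 3 libraries of control cells, whose genotype label is wild type, and 3 of Carmil3 knockout cells. Carmil3 encodes a protein of the CARMIL family, which binds actin capping protein. Per the labels the knockout cells were clones grown from single cells. How many clones were sequenced, how the knockout was made, and whether the 3 libraries of a group were separate cultures is not stated in these sources, so the p-values measure the spread between these libraries, which may be technical. The comparison asks which transcripts differ between the control and the knockout cells.

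Before DNA is copied, the origin recognition complex, Cdc6 and Cdt1 load the ring-shaped MCM helicase onto origins. Cdc45 and the GINS complex then turn it into an active helicase, and polymerases, the sliding clamp PCNA and its loader RFC copy both strands, with deoxynucleotides supplied by ribonucleotide reductase and a few other enzymes. Most of these genes are transcribed mainly in late G1 and S phase under E2F transcription factors, so in a growing tumour line their RNA is usually abundant and is often read as a sign of cell division.

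Expression values are FPKM, reads scaled by exon length and by library size, and a gene was tested if it reached 1 FPKM in at least 3 libraries, which 11171 genes did. The knocked-out gene itself was close to 0 in every library, at 0.036, 0.0246 and 0.0117 FPKM in control and 0, 0.0118 and 0.0241 FPKM in knockout libraries, so its level does not check the labels. Markers of mammary epithelium fit the label in control cells, where 9 matched markers summed to between 1050 and 1150 FPKM, and were lower in knockout cells, where they summed to between 430 and 475 FPKM; Krt7, Epcam, Cldn4 and Krt14 were at or near 0 there. Markers of endothelium were near 0 in all libraries. The 7 matched leukocyte markers summed to between 13.1 and 16.3 FPKM in control and between 8.63 and 12.3 FPKM in knockout cells. Most of that was Cd14, which was called lower (adjusted p = 0.0172, lost without control replicate 1 or 3), and Cd68, while Ptprc was at most 0.00614 FPKM. Sums over the 5 matched fibroblast markers ran from 11.5 to 12.2 FPKM in the control libraries. For the knockout libraries they ran from 17.8 to 18.3 FPKM. Most of each sum was Pdgfra, which was called higher (limma, log2 change 0.75, adjusted p = 1.18e-05). Col1a1, the other tested marker of this list, was called lower (log2 change -0.97, adjusted p = 7.58e-05). Its mean was 1.5 FPKM for control and 0.271 FPKM for knockout. The rest were at most 0.184 FPKM, with Postn lower and Dcn higher in every knockout library. The part of these marker differences in the results below was not tested. Knockout replicate 3 stood apart from the other knockout libraries: its counts differed from theirs with a chi-square per degree of freedom of 19.2 and 17.7, against 3.03 between the other 2. The control libraries were uneven too, at 10.6 between replicates 2 and 3, 4.5 between 1 and 2 and 3.4 between 1 and 3.

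The replication genes were highly expressed in both groups and differed little between them. In control cells the median over the 45 tested genes was 24.7 FPKM, against 8.44 FPKM over all genes tested, and 42 of the 45 lay above that overall median. Summed over the 46 genes, the libraries held 1752, 1753 and 1783 FPKM in control and 1762, 1733 and 1770 FPKM in knockout cells, so the groups overlapped. With limma on log2(FPKM + 1) and an adjusted p under 0.05, 11 of 45 rose in knockout cells and 6 fell. Over all genes tested, 16.9% were called higher and 18.7% lower. The 17 calls are 37.8% of the tested replication genes, near the 35.6% called among all genes, so the count is no result about these genes. The counts by role below rest on at most 10 genes each and were not tested against these shares. The control and knockout ranges were separate for 26 of the 45, 57.8%, where all genes gave 50.5%.

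The changes were small. Log2 changes of (FPKM + 1) ran from -0.46 for Mcm5 to 0.43 for Rpa3, with a median of 0.01, beside a median of -0.01 over every gene in the fit. None of the 45 reached a difference of 0.5 on that scale, which 9.36% of all genes tested did. Only Orc1, Pola2, Rpa3 and Mcm5 had a fitted change above 1.25-fold on that scale, which understates low genes. By mean FPKM the tested genes E2f2, at 1.29 times its control mean, and Gins3, at 0.775 times, also passed that limit. Of the 28 genes without a call, 26 had a 95% interval that lay wholly within a 1.25-fold change either way, the exceptions being Pold1 and Gins2. Fen1 was not tested. The count of calls changed when 1 library was left out, which also leaves fewer libraries for the test. Without control replicate 1 it was 7 higher and 2 lower (10.6% and 12.2% of all genes). Without control replicate 2 it was 8 and 4 (13.2% and 15.4%), and without control replicate 3 it was 9 and 4 (14.0% and 14.3%). Without knockout replicate 1 it was 8 and 3 (12.4% and 15%), and without knockout replicate 2 it was 9 and 3 (13.0% and 14.5%). Without knockout replicate 3 it was 12 higher and 8 lower (18.3% and 19.9% of all genes). Without the filter on low values 7 rose and 3 fell (6.5% and 7.88% of all genes). The share of all genes called either way was 35.1% and 35.8% with pseudocounts of 0.1 and 5, 39.9% with a filter of 5 FPKM, 35.7% after median-of-ratios scaling, 36.8% after quantile scaling, 34.3% with a plain eBayes fit, 36.0% with a replicate block and 38.5% with limma-voom on recovered reads. Under these settings 17, 17, 16, 15, 18, 16, 17 and 17 replication genes were called.

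**Figure D1:**
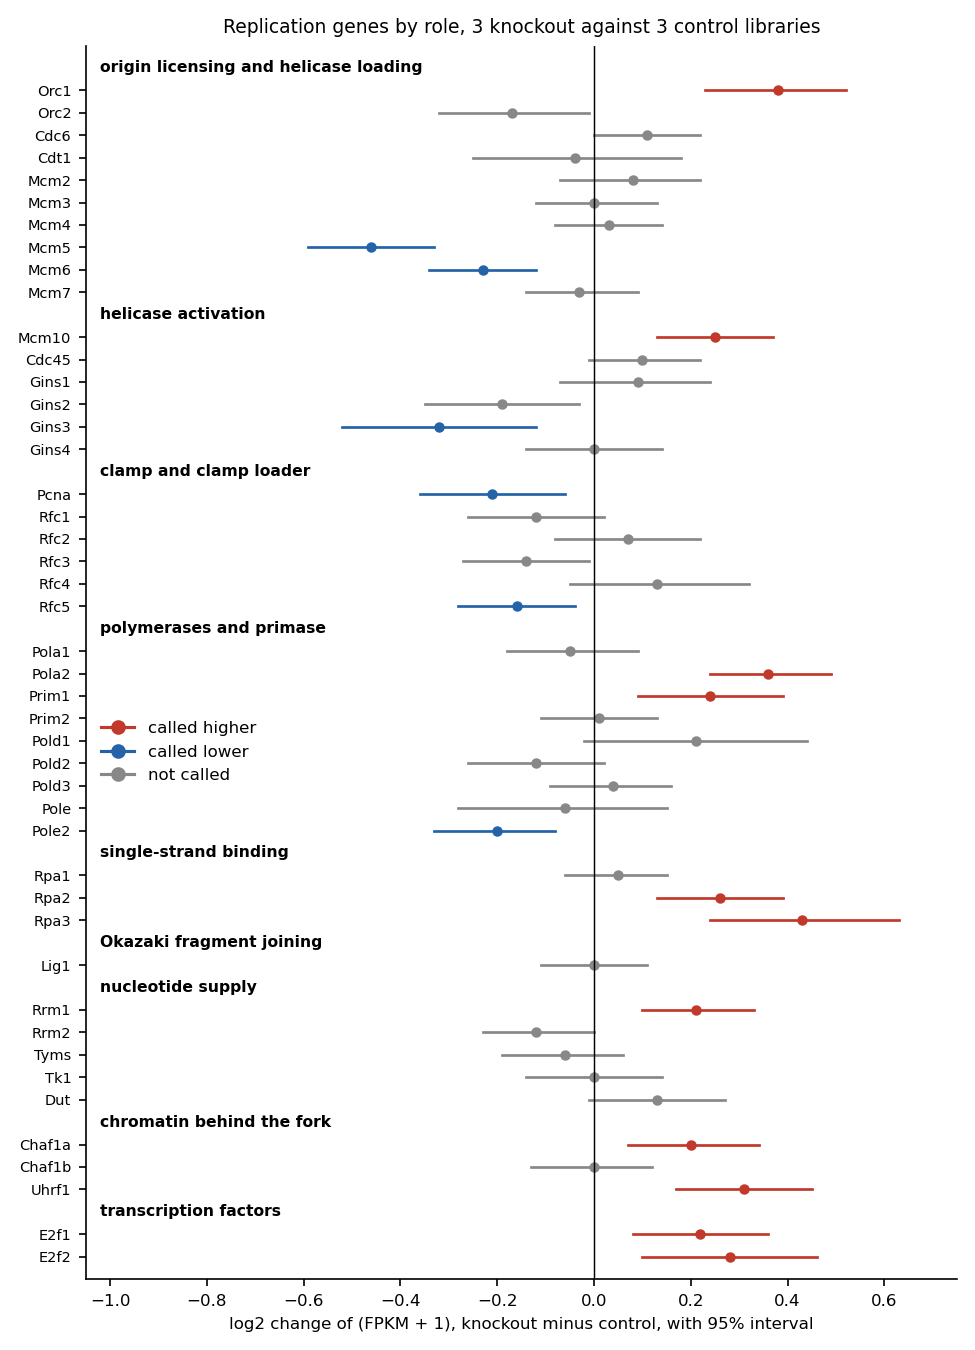
Log2 change of (FPKM + 1) in knockout against control cells (horizontal axis) for the 45 tested genes, grouped by role; points are limma estimates from 3 against 3 libraries, lines are 95% intervals, red and blue mark genes called higher and lower at an adjusted p under 0.05. Calls in both directions occur among licensing, helicase and polymerase genes, and no estimate lies beyond -0.46 or 0.43.

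Of the 12 genes with an E2F motif in a promoter window, some were called higher, some lower and 6 not at all. RefSeq promoter windows (GRCm38.p6, 250 bases before to 50 after the gene's start) were found for 39 of the 46 genes, 47 windows in all. The E2F motif was searched as TTTCGCGC or TTTGGCGC on both strands. It was present in 12 of the 47 windows, 25.5%, against 0.813% of all 32851 windows in the table and 1.64% of the windows of genes tested. The 12 genes were Orc1, Cdt1, Mcm3, Mcm5, Mcm6, Mcm7, Rfc3, Pola1, Pole2, Lig1, Uhrf1 and E2f2. Of these, Orc1, Uhrf1 and E2f2 rose, Mcm5, Mcm6 and Pole2 fell, and 6 did not pass the test. Among all genes tested 16.9% were called higher and 18.7% lower. When the values of chromosomal neighbours were subtracted, as described below, only Orc1 and Mcm5 kept their calls. Uhrf1, E2f2, Mcm6 and Pole2 lost theirs, and Cdt1 was called higher. The part of the motif in these calls was not tested. For Orc1, Uhrf1, Mcm5 and Mcm6 every match lies before the RefSeq start of its window. The bases from 40 before the first match up to that start are shown, or for Orc1 up to the end of the match, 5′ to 3′ along the gene, with the matches in capitals. In Mcm5 and in the first match of Mcm6, motifs of both strands overlap. The stretches are chr4:108579387-108579434 (plus strand), chr17:56304088-56304312 (plus), chr8:75109316-75109508 (plus) and chr1:128359706-128359855 (minus).
Orc1: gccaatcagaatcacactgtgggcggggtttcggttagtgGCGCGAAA
Uhrf1: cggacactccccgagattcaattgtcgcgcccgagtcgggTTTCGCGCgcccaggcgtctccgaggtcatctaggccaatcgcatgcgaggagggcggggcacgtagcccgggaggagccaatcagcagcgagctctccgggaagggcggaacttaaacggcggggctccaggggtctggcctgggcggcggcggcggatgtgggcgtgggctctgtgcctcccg
Mcm5: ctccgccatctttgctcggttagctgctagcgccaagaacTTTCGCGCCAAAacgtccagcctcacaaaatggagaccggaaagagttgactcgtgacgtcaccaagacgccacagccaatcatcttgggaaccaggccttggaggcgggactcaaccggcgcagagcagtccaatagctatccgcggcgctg
Mcm6: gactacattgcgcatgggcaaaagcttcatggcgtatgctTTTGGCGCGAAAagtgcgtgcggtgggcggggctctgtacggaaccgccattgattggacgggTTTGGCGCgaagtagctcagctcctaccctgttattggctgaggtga

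RefSeq and GENCODE M21 place these starts differently. The RefSeq start of Orc1 lies 31 bases inside the GENCODE gene, and 12 bases of the stretch shown are in its annotated exon. Uhrf1 has 2 RefSeq windows, and the start of the one shown lies 992 bases inside the GENCODE gene, where the stretch holds no annotated exon base. Counted from the RefSeq start, the first match begins 27 bases before it in Orc1, 185 in Uhrf1, 153 in Mcm5 and 110 in Mcm6, and Mcm6 has another at 47. The CCAAT box was found in 28 of the 47 windows, 59.6%, against 37.4% of all windows, and the motif TTTGAA, known as the cell cycle homology region of mitotic genes, in 6, 12.8%, against 17.9%. Among the windows of genes tested the shares were 38.1% for CCAAT and 11.9% for TTTGAA. A match describes the letters of these windows and not the binding of a factor.

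Among the 10 genes of origin licensing and helicase loading, Orc1 rose, Mcm5 and Mcm6 fell, and 7 did not pass the test. Orc1, the largest subunit of the origin recognition complex and the one whose level changes through the cell cycle, is encoded on chromosome 4 (108579423 to 108614833 on the plus strand, GRCm38). It measured 5.88, 6.43 and 5.93 FPKM in control and 8.68, 8.14 and 7.78 FPKM in knockout libraries. Every knockout library lay above every control library. The log2 change was 0.38 (95% interval 0.23 to 0.52, adjusted p = 0.00243). Orc2, another subunit of the same complex, measured between 22.9 and 26.6 FPKM in control and between 21 and 23.2 FPKM in knockout libraries, and the groups overlapped (log2 change -0.17, adjusted p = 0.0907). Orc2 was called lower without knockout replicate 3 (adjusted p = 0.0472). The ratio of Orc1 to Orc2 was 0.247 ± 0.0103 in control and 0.376 ± 0.0392 in knockout libraries (SD, n = 3), a pair chosen after the values were seen.

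Mcm2 to Mcm7 encode the 6 subunits of the replicative helicase, which assemble in equal numbers, but their RNA levels per exon length were unequal. In control cells they ranged from 30.7 ± 1.87 FPKM for Mcm2 to 120.4 ± 1.88 FPKM for Mcm6 (SD, n = 3). Mcm5 (chromosome 8, 75109569 to 75128439, plus strand) measured 74.5, 70.2 and 77.2 FPKM in control and 55.7, 52.9 and 51.5 FPKM in knockout libraries. The groups were well separated, and Mcm5 fell by 27.8% (log2 change -0.46, 95% interval -0.59 to -0.33, adjusted p = 0.000473). Mcm6 (chromosome 1, 128331590 to 128359664, minus strand) measured 119.7, 122.5 and 118.9 FPKM in control and 101.6, 101.2 and 104.7 FPKM in knockout libraries. It fell by 14.9%, with no overlap (log2 change -0.23, adjusted p = 0.00785). Mcm2, Mcm3, Mcm4 and Mcm7 had log2 changes between -0.03 and 0.08, with overlapping groups and no 95% interval beyond -0.14 or 0.22.

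Mcm5 therefore made up a smaller part of the RNA of this complex in knockout cells. It was 15.4%, 14.6% and 15.5% of the summed FPKM of the 6 subunit genes in control and 12.2%, 11.8% and 11.5% in knockout libraries. The sum itself was 487.0 ± 9.46 FPKM in control and 451.2 ± 5.27 FPKM in knockout libraries (SD, n = 3). Mcm5 was singled out here because its change was known, so these shares are given without a test.

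**Figure D2:**
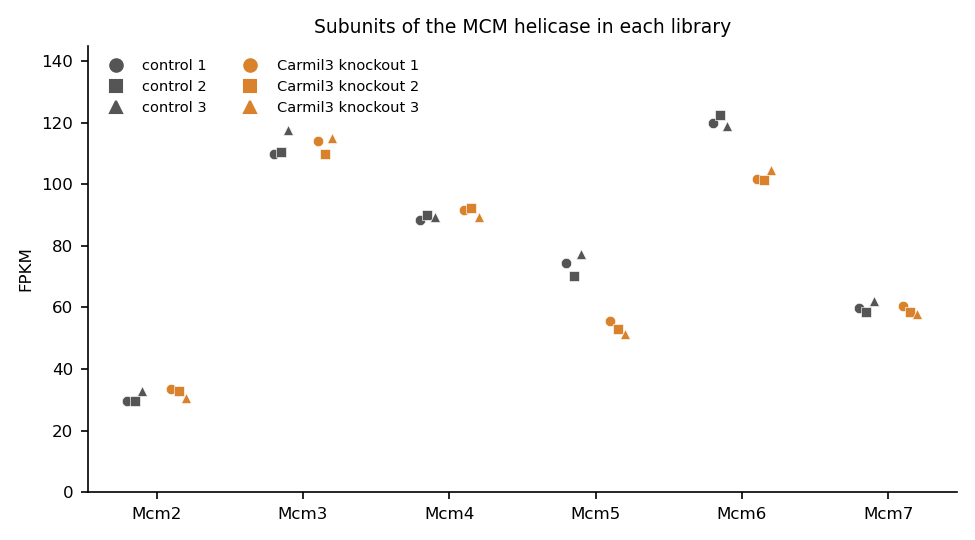
FPKM (vertical axis, from 0) of the 6 MCM helicase genes in each of 3 control (grey) and 3 Carmil3 knockout (orange) libraries, 1 symbol per library. Mcm5 and Mcm6 are lower in every knockout library, and the groups overlap for the other genes.

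The helicase loaders Cdc6 and Cdt1 did not pass the test. Cdc6 measured 23.3, 23.1 and 23.6 FPKM in control and 25.9, 25.4 and 24.6 FPKM in knockout libraries, a log2 change of 0.11 with adjusted p = 0.115, although the groups did not overlap. It was called without knockout replicate 3 (adjusted p = 0.0493). Cdt1, whose protein is normally destroyed once S phase begins, measured 36.1, 29.5 and 38.3 FPKM in control and 35.7, 32.1 and 32.8 FPKM in knockout libraries. Its control libraries spread widely around the knockout values (log2 change -0.04, adjusted p = 0.777).

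Of the 6 genes of helicase activation 1 rose and 1 fell. Mcm10, which joins the helicase as it is activated, measured 17.0, 16.8 and 16.3 FPKM in control and 20, 20.7 and 19.5 FPKM in knockout libraries. All knockout values were higher (log2 change 0.25, 95% interval 0.13 to 0.37, adjusted p = 0.0059). The 4 GINS subunits, which act as one complex, differed among themselves. Gins3 measured 8.24, 9.86 and 7.67 FPKM in control and 6.96, 6.30 and 6.72 FPKM in knockout libraries, and fell (log2 change -0.32, adjusted p = 0.0224). That call was lost without control replicate 1 or knockout replicate 2. Gins2 lay lower in every knockout library but did not pass (log2 change -0.19, adjusted p = 0.0637; 0.0374 without control replicate 2), and Gins1 and Gins4 overlapped, with log2 changes of 0.09 and 0.00. Cdc45, the helicase cofactor, measured between 28.8 and 29.3 FPKM in control and between 30.2 and 32.0 FPKM in knockout libraries (log2 change 0.10, adjusted p = 0.127).

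In the sliding clamp and its loader 2 of 6 genes fell. Pcna, the clamp that holds polymerases on DNA and the most highly expressed of the 46 genes, measured 219.3, 229.0 and 225.5 FPKM in control and 186.1, 187.0 and 210.7 FPKM in knockout libraries. Knockout replicate 3 lay well above the other knockout libraries but below the controls. The log2 change was -0.21 (adjusted p = 0.0364) and was -0.27 without knockout replicate 3 (adjusted p = 0.00278). Rfc5, a clamp loader subunit, measured 19.2, 19.4 and 19.9 FPKM in control and 16.7, 17.4 and 18.0 FPKM in knockout libraries (log2 change -0.16, adjusted p = 0.0426). Leaving out any 1 library other than knockout replicate 3 ended the calls of Pcna and Rfc5. Of the other subunits, Rfc1 and Rfc3 were lower and Rfc4 higher without overlap, Rfc2 overlapped (log2 change 0.07), and none passed. Rfc4 measured 22.1, 21.7 and 21.9 FPKM in control and 22.6, 22.5 and 27.8 FPKM in knockout libraries, so its difference lay mostly in knockout replicate 3.

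Among 9 polymerase and primase genes, 2 rose and 1 fell, and those that rose belong to the complex that starts each new strand. Pola2, the regulatory subunit of polymerase alpha (chromosome 19, 5940542 to 5964202, minus strand), measured 36.3, 35.3 and 37.5 FPKM in control and 48.7, 47.9 and 44.9 FPKM in knockout libraries. The groups stood far apart against their spread (log2 change 0.36, 95% interval 0.24 to 0.49, adjusted p = 0.00114). Pola1, the catalytic subunit of the same polymerase, measured 10.2, 10.6 and 9.86 FPKM in control and 9.91, 10.3 and 9.37 FPKM in knockout libraries, with overlap (log2 change -0.05, 95% interval -0.18 to 0.09). The ratio of Pola2 to Pola1 was thus 3.56 ± 0.242 in control and 4.78 ± 0.144 in knockout libraries (SD, n = 3), a pair chosen after the values were seen. Prim1, the catalytic primase subunit, measured 20.6, 20.5 and 19 FPKM in control and 23.0, 22.8 and 25.8 FPKM in knockout libraries, and rose (log2 change 0.24, adjusted p = 0.02). The call of Prim1 was lost without control replicate 1 or 3. Its partner Prim2 had a log2 change of 0.01 (95% interval -0.11 to 0.13).

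Pole2, an accessory subunit of the leading-strand polymerase epsilon, measured 10.8, 10.8 and 10.5 FPKM in control and 8.91, 9.64 and 8.99 FPKM in knockout libraries. It fell (log2 change -0.20, adjusted p = 0.022), a call lost without control replicate 1 or 2 or knockout replicate 1. The catalytic subunit Pole did not pass, at -0.06. It measured between 11.8 and 12.3 FPKM in control libraries and 12.7, 12.2 and 9.56 FPKM in knockout libraries, the last from replicate 3. The genes of polymerase delta, Pold1, Pold2 and Pold3, had log2 changes of 0.21, -0.12 and 0.04 with overlapping groups. Pold1 had the widest interval of the 3 (-0.02 to 0.44).

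Replication protein A covers single-stranded DNA at the fork, and 2 of its 3 subunit genes rose. Rpa3, the smallest subunit (chromosome 6, 8255936 to 8259173, minus strand), measured 26.8, 29.8 and 26.4 FPKM in control and 35.3, 35.3 and 42.8 FPKM in knockout libraries. It had the largest rise of the 45 tested genes, with no overlap (log2 change 0.43, 95% interval 0.24 to 0.63, adjusted p = 0.00494). Knockout replicate 3 was the highest, and without it the log2 change was 0.34 (adjusted p = 0.00585). Rpa2, the middle subunit, measured 16.5, 16.9 and 17.5 FPKM in control and 20.4, 19.7 and 21.5 FPKM in knockout libraries (log2 change 0.26, adjusted p = 0.00745). Rpa1, the largest subunit, which makes most of the contact with DNA, measured 49.2, 49.6 and 48.8 FPKM in control and 51.1, 50.6 and 51.0 FPKM in knockout libraries. These groups did not overlap, but the difference was small (log2 change 0.05, adjusted p = 0.444).

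Of the 2 genes that process and join Okazaki fragments, Lig1, the replicative DNA ligase, measured 48.8, 51.6 and 48.9 FPKM in control and 50.3, 50.1 and 48.7 FPKM in knockout libraries. The groups overlapped, with a log2 change of 0.00 and a 95% interval from -0.11 to 0.11. Fen1, the flap endonuclease of the same step, was listed at only 0.477, 0.395 and 0.529 FPKM in control and 0.325, 0.357 and 0.432 FPKM in knockout libraries, or between 15 and 24 recovered reads a library, and was below the filter. In GENCODE M21, 84.2% of the exon bases of Fen1 also lie in exons of Gm10143 and Tmem258 on the other strand. No source used here gives the strand setting of the authors' counting, and the part of this overlap in the low value was not tested.

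Exon overlap above 10% with another gene was also found for Gins2 (67.3%, with Gse1), Chaf1a (52.5%, with Ubxn6), Orc2 (29.8%, with Nif3l1), Rfc2 (15.1%), Rfc4 (12.7%), Mcm7 (12.6%), Orc1 (10.8%) and Rfc5 (10.7%). The shared bases lie on the other strand, apart from 3.9% of the exon bases of Mcm7. With the strand setting unknown, the values of these genes are uncertain, and the part of the overlap in them was not tested.

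Among the 5 genes of nucleotide supply 1 rose. Rrm1, the large subunit of ribonucleotide reductase, measured 31.0, 32.5 and 29.9 FPKM in control and 36.7, 36.0 and 36.3 FPKM in knockout libraries, with no overlap (log2 change 0.21, adjusted p = 0.0121). The call was lost without control replicate 1. Rrm2, the small subunit whose supply changes through the cell cycle, went the other way in each library, at 134.0, 140.3 and 138.0 FPKM in control and 126.0, 126.4 and 127.6 FPKM in knockout libraries, but did not pass (log2 change -0.12, adjusted p = 0.102). It was called lower without knockout replicate 3 (adjusted p = 0.0497) and after quantile scaling (adjusted p = 0.0395). The ratio of Rrm2 to Rrm1 was 4.41 ± 0.169 in control and 3.49 ± 0.0456 in knockout libraries (SD, n = 3), again a pair chosen after the values were seen. Thymidylate synthase (Tyms), thymidine kinase (Tk1) and the dUTPase gene Dut had log2 changes of -0.06, 0.00 and 0.13. Tk1 measured between 33.4 and 37.6 FPKM in control and between 34.7 and 37.2 FPKM in knockout libraries.

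Of the 3 genes that restore chromatin behind the fork, Uhrf1 and Chaf1a rose and Chaf1b did not pass. Uhrf1, which brings the maintenance DNA methyltransferase to new DNA, measured 73.5, 70.7 and 74.5 FPKM in control and 94.6, 93.8 and 84.2 FPKM in knockout libraries. All knockout values were higher, replicate 3 the least (log2 change 0.31, adjusted p = 0.00501). Chaf1a, the large subunit of chromatin assembly factor 1, measured 39.4, 39.3 and 39.5 FPKM in control and 47.7, 46.7 and 42.4 FPKM in knockout libraries (log2 change 0.20, adjusted p = 0.0237). Leaving out any 1 library other than knockout replicate 3 ended this call. Its partner Chaf1b overlapped, at 11.7, 11.5 and 11.7 FPKM in control and 11.5, 11.1 and 12.2 FPKM in knockout libraries.

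E2f1 and E2f2, the E2F genes among the 46, encode activating factors, and both rose. E2f1 measured 23.8, 21.2 and 23.3 FPKM in control and 26.5, 25.6 and 28.0 FPKM in knockout libraries (log2 change 0.22, adjusted p = 0.0253). The call was lost without control replicate 2 or knockout replicate 1. E2f2, the least expressed tested gene of the 46, measured 2.73, 2.41 and 2.87 FPKM in control and 3.71, 3.43 and 3.21 FPKM in knockout libraries (log2 change 0.28, adjusted p = 0.0228). Every knockout library lay above every control library for both genes. The call of E2f2 was lost without control replicate 1 or 2 or knockout replicate 1 or 2.

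**Figure D3:**
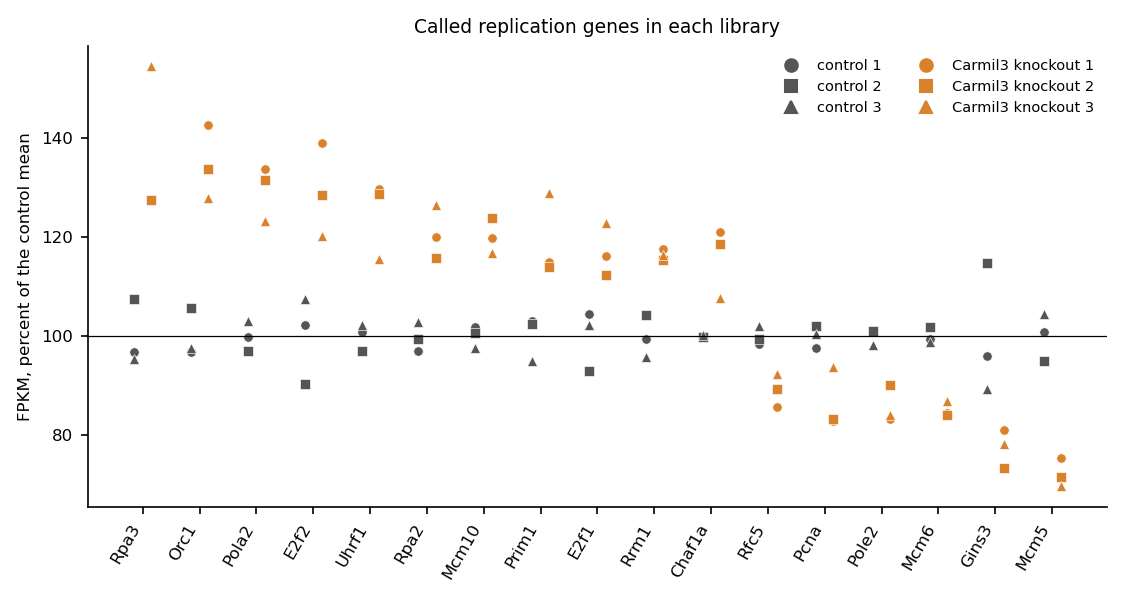
FPKM of the 17 called genes in each library as a percent of the control mean (vertical axis, not from 0); grey symbols are the 3 control libraries, orange symbols the 3 Carmil3 knockout libraries. The groups do not overlap for any of the 17, which range from Rpa3, up by 36.6% on average, to Mcm5, and knockout replicate 3 (triangles) often lies apart from the other knockout libraries.

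Where a gene lies on its chromosome moved with several of these results. For each gene a local value was taken, the median of the log2 changes of 20 tested neighbours to its left and 20 to its right. Among the 5 genes on chromosome 8, the neighbours of Mcm5, Cdt1, Gins2 and Gins3 had medians of -0.28, -0.28, -0.24 and -0.23, and those of Gins4 had 0.01. The neighbours of Mcm6 on chromosome 1 had -0.27. When the neighbours' values were subtracted in each library, 7 of the 45 genes were called higher and 2 lower, where 13.3% and 14.2% of all genes were. Why genes moved with their neighbours was not tested. Of the 17 original calls 6 were kept: Orc1, Mcm10, Pola2, Rpa3, E2f1 and Mcm5. The calls of Mcm6, Gins3, Pcna, Rfc5, Pole2, Prim1, Rpa2, Rrm1, Uhrf1, Chaf1a and E2f2 were lost. Centred log2 changes were 0.07 for Rpa2, 0.10 for Rrm1, -0.12 for Pcna and -0.02 for Pole2.

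Mcm5 stayed below its neighbours, with a centred log2 change of -0.19 (adjusted p = 0.0452), a smaller difference than before. Mcm6 did not, at 0.04 (adjusted p = 0.62). Cdt1, whose own level overlapped between the groups, was higher relative to its neighbours, at 0.24 (adjusted p = 0.0327), as was Rpa1, at 0.16 (adjusted p = 0.0316). Orc2 was lower relative to its neighbours, at -0.20 (adjusted p = 0.0294). Orc1, Pola2 and Rpa3 kept nearly their full change, with centred log2 changes of 0.34, 0.31 and 0.41 and neighbours at 0.03, 0.05 and 0.02. Uhrf1 and Chaf1a lie on chromosome 17 with neighbours at 0.15 and 0.11, and their centred changes of 0.16 and 0.09 did not pass.

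**Figure D4:**
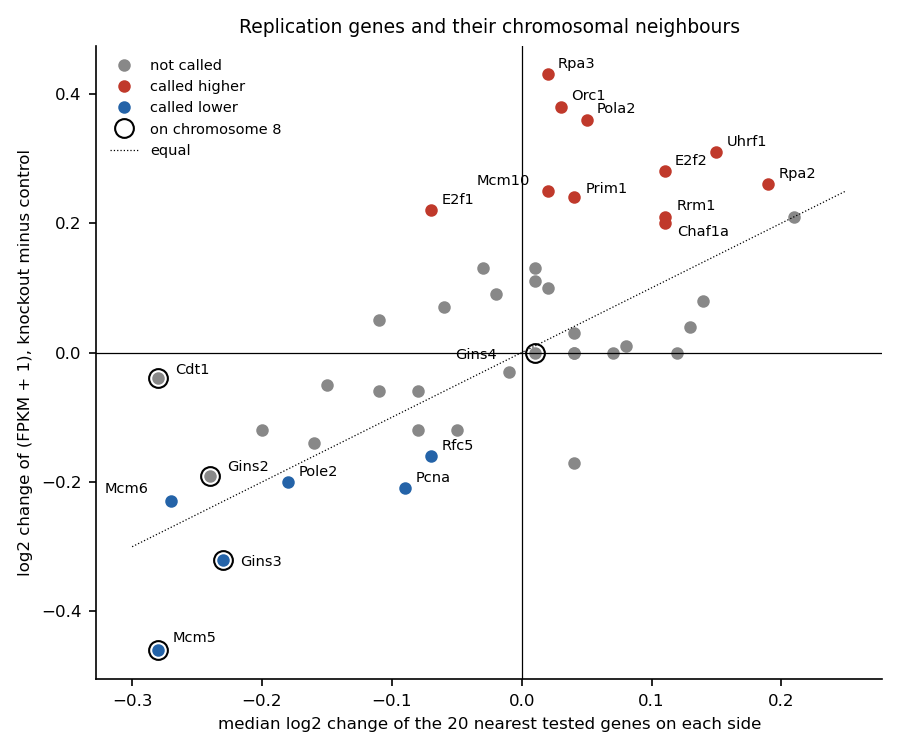
Log2 change of (FPKM + 1) of each of the 45 tested genes (vertical axis) against the median log2 change of its neighbours, 20 to either side (horizontal axis); rings mark genes on chromosome 8, and the dotted line marks equal values. Mcm5, Gins2, Gins3 and Cdt1 each have neighbours with a median below 0, while Rpa3, Orc1 and Pola2 lie high above neighbours near 0.

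A wider list of 104 other genes of the same pathway was read from the same fit; 101 were tested, 19 rose and 13 fell, and the median log2 change was 0.01. Of these, 18.8% were called higher and 12.9% lower, beside 16.9% and 18.7% of all genes. In origin licensing and firing 2 of 15 rose, Orc3 (log2 change 0.18) and the Cdt1 inhibitor Gmnn (0.18), and none was called lower by limma; 2 were lower at an unadjusted p under 0.05, and limma-voom on recovered reads called 1 lower. Both calls were marginal (adjusted p = 0.0493 and 0.0498): Orc3 kept its call in 8 of 16 alternatives and lost it without any 1 library other than control replicate 2, and Gmnn kept it in 4 and lost it without any 1 other than knockout replicate 1. Without control replicate 1 the wider list held 9 higher and 8 lower genes, and without control replicate 3 or knockout replicate 2 it held 12 higher.

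At the fork 5 of 20 other genes rose and 4 fell. Rnaseh2b, a subunit of the enzyme that removes ribonucleotides from DNA, fell from 4.53 ± 0.116 to 2.54 ± 0.244 FPKM (SD, n = 3; log2 change -0.65), the largest change among the 101. Dscc1 and Chtf8, parts of an alternative clamp loader, fell (log2 changes -0.33 and -0.24). The polymerase epsilon subunit gene Pole3 rose from 21.8 ± 0.203 to 29.4 ± 2.46 FPKM (0.42), and Pclaf, a PCNA-binding factor, and Top2a, topoisomerase II alpha, rose by 0.30 each on the log2 scale. The call of Chtf8 was lost without control replicate 1 or knockout replicate 2, and that of Top2a without control replicate 1. Pole3 and Pole2, subunits of the same polymerase, thus went in opposite directions.

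In deoxynucleotide supply 3 of 13 other genes rose and 2 fell, 23.1% and 15.4%, beside 16.9% and 18.7% of all genes. Among them Dguok and Dtymk, nucleoside and thymidylate kinases, rose by 0.33 and 0.26 on the log2 scale. The deaminase gene Dctd (log2 change -0.34) and the nucleoside diphosphate kinase gene Nme1 (-0.29) fell, and the call of Nme1 was lost without any 1 library other than knockout replicate 3. In purine and pyrimidine synthesis 3 of 25 rose, Mthfd2 (0.25), Impdh2 (0.24) and Shmt2 (0.16), and 4 fell, led by the folate enzyme gene Mthfd1 (-0.34) and the salvage enzyme genes Aprt (-0.31) and Uck2 (-0.23). Shmt2 kept its call in 7 of 16 alternatives and lost it without control replicate 1 or 2 or knockout replicate 1 or 2. Aprt kept its call in 8 and lost it without any 1 library other than control replicate 2. Among 9 chromatin and histone supply genes Rbbp4 rose (0.31) and Asf1b fell (-0.27), 11.1% of the list in each direction. After centring on neighbours the calls of Dscc1, Chtf8, Dguok, Dtymk, Dctd, Mthfd1, Mthfd2, Impdh2, Shmt2, Aprt, Uck2, Rbbp4 and Asf1b were lost. Of the licensing genes above, Orc3 and Gmnn lost theirs too. Rnaseh2b kept its call with a smaller change, at -0.30, with neighbours at -0.35.

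Of 11 other E2F and pocket protein genes 3 rose and 2 fell, 27.3% and 18.2%, beside 16.9% and 18.7% of all genes. E2f4, an E2F that mostly represses, fell from 41.6 ± 1.81 to 31.7 ± 1.17 FPKM (SD, n = 3, log2 change -0.38). The neighbours of E2f4 were at -0.19, and its centred log2 change was -0.19, with the call kept. Rb1, the retinoblastoma gene that restrains E2F, fell from 3.55 ± 0.300 to 2.58 ± 0.0629 FPKM (-0.35). E2f5, E2f8 and E2f6 rose by 0.20, 0.20 and 0.19 on the log2 scale, and E2f3 and E2f7 were not called. E2f5 kept its call in 8 of 16 alternatives, E2f6 in 9 and E2f8 in 12. Left-out libraries that ended it were any 1 but knockout replicate 1 for E2f5, any 1 but control replicate 2 for E2f6, and control replicate 1 or knockout replicate 1 or 2 for E2f8. In the S-phase checkpoint 2 of 8 tested genes rose, Rad9a (0.35) and the kinase gene Chek1 (0.15). Chek1 kept its call in 5 of 16 alternatives and lost it with any 1 of the 6 libraries left out and after centring on neighbours. In this list none was lower by limma or limma-voom or at an unadjusted p under 0.05.

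By limma without centring, the nearest gene groups of the cell cycle were called in 1 direction where replication genes were called in both. Of 32 mitosis genes 11 rose and none was called lower by limma, beside 16.9% of all genes called higher and 18.7% lower. At an unadjusted p under 0.05, 19 were higher and 1 lower, a cut at which the share of all genes was not taken. Limma-voom on recovered reads called 16 higher and 1 lower, where it called 38.5% of all genes in either direction. Their median log2 change was 0.18, against 0.01 for the replication genes, led by Kif2c (0.42), Nusap1 (0.35) and Mad2l1 (0.33), which act on the spindle. Mad2l1 lost its call after centring on neighbours (limma, adjusted p = 0.0845). Without control replicate 1 the number of mitosis genes that rose was 6, where 10.6% of all genes were called higher, and without knockout replicate 1 or 2 it was 7, where 12.4% and 13.0% were. Of 12 tested genes for G1 cyclins, their kinases and inhibitors 8 rose (66.7%) and none fell, with none lower at an unadjusted p under 0.05 or by limma-voom. Those that rose included both the cyclin gene Ccnd1 (176.2 to 179.5 FPKM in control and 345.7 to 383.8 FPKM in knockout libraries) and the inhibitor genes Cdkn1a (log2 change 0.62) and Cdkn2d (0.46). After centring on neighbours 6 of the G1 genes were called higher, where 13.3% of all genes were. Ccnd2 and Cdkn1b lost their calls. Ccne1 was then called lower (centred log2 change -0.26, limma, adjusted p = 0.0112), where 14.2% of all genes were. Whether these lists differ from the replication genes was not tested.

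**Figure D5:**
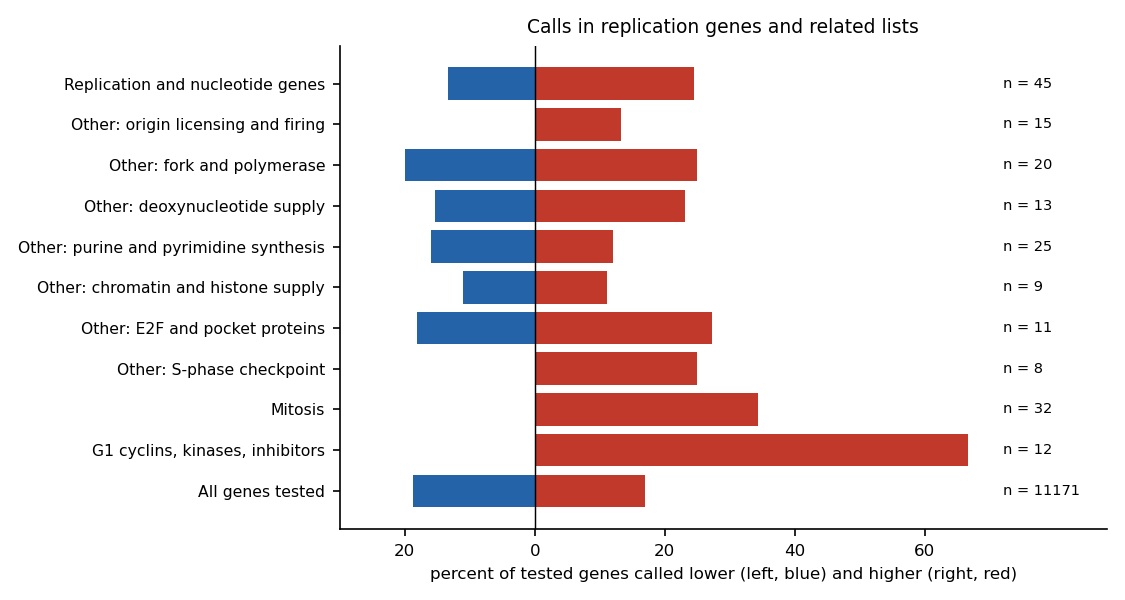
Percent of tested genes called higher (right, red) and lower (left, blue) in knockout cells for the replication genes, 7 lists of other pathway genes, mitosis genes, G1 genes and all genes tested, with the number tested at the right. The replication genes have 24.4% higher and 13.3% lower, and the origin firing, checkpoint, mitosis and G1 lists have no bar on the left.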

How the data were processed

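RNA was measured in 3 control and 3 Carmil3 knockout libraries of 4T1 cells. The authors deposited 1 table of FPKM, a unit read from the values; the submitters' processing notes name, without roles, HTSeq 0.6.0, TopHat2 2.0.12, TopHat, Bowtie2, Bowtie, CASAVA and the build mm10, and no source used here gives the annotation, strand setting or scaling. Identifiers were matched to GENCODE M21 (GRCm38, the assembly also called mm10), which named 23587 of 23644 rows. Value times exon length gave whole multiples of 1 step per library (within 0.02 of a read for 91.9% to 92.2% of the values up to 500 reads), and implied totals of 17779132 to 19046811 reads. Recovered reads summed over genes came to between 108.7% and 109.1% of these totals, and the reason was not tested. Depth is therefore relative, and at 1 FPKM it limits precision.

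The test was limma 3.58.1 (R 4.3.3; eBayes with a trend, robust) on log2(FPKM + 1). Genes had to reach 1 FPKM in 3 or more of the libraries, p-values were adjusted by Benjamini-Hochberg over all 11171 of them, and the threshold was 0.05. Fold changes on this scale understate low genes. Figures used Python 3.11.15 and matplotlib 3.10.9. Alternatives were pseudocounts 0.1 and 5, no filter, a filter of 5 FPKM, median-of-ratios and quantile scaling, eBayes without trend and robust, a replicate block, each library left out (genes tested kept), limma-voom on recovered reads and centring on neighbours. On simulated data with 10891 genes tested, 53.2% of genes changed 1.25-fold, 87.8% changed 1.5-fold and 95.7% changed 2-fold were recovered, with 19 false calls.

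Genes and lists were chosen with earlier results of these data known. Described with values were called genes, the largest and smallest change of each role, and genes at the filter; of other lists, up to 3 called genes per direction with a mean of at least 2 FPKM. A gene of the wider list is not reported here. No replicate pair agreed within counting error (chi-square over its degrees of freedom from 3.03 to 19.2).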

Additional observations from a re-analysis of the deposited data

How the results depend on the processing

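Of the 17 calls among replication genes, Orc1, Mcm5, Mcm10, Pola2 and Rpa3 held in all 16 alternatives, and Mcm6, Rpa2 and Uhrf1 in all but centring on neighbours. With both other pseudocounts, quantile scaling, the replicate block and limma-voom on recovered reads all 17 were kept. Without the filter 7 replication genes were called higher and 3 lower, 10 other pathway genes higher and 7 mitosis genes higher. After centring on neighbours the counts were 7 and 2 replication genes and 12 and 8 other pathway genes, and 1 G1 gene was lower; Mcm6 turned to 0.04 and Cdt1 to 0.24, in each case because the lower neighbours were subtracted. Limma-voom called 1 mitosis gene lower. With 1 library left out, 7 to 12 replication genes were higher and 2 to 8 lower, 9 to 20 other pathway genes higher and 8 to 17 lower, 6 to 16 mitosis genes higher and 0 to 1 lower, and 1182 to 2041 of all genes higher and 1358 to 2218 lower. The cause of these changes in the counts was not tested, and leaving out a library also leaves fewer libraries for the test. The replicate numbers share only a number: deviations of same-numbered libraries correlated at 0.0756, 0.255 and 0.106, and control replicate 3 correlated best with knockout replicate 1, at 0.156. With the replicate block 11 replication genes were higher and 6 lower, as without it, and 15 in place of 11 mitosis genes were higher. In the simulation 53.2% of 1.25-fold changes were recovered. It gave every gene and library the same dispersion and held no outlying library, so that rate may not hold for these libraries.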
